A study of Mus musculus with 6 samples.

Results

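The transcripts of 10 genes of the Hippo pathway were followed in embryonic mouse stomach at E13.5 (the embryonic day). The genes were Yap1, Wwtr1 (which encodes TAZ), Tead1, Tead2, Tead3, Tead4, Lats1, Lats2, Nf2 and Vgll3. They were chosen for their place in the pathway, and each was read from the probe set annotated to its symbol alone with the highest mean over the arrays. All 10 were represented, among 19938 genes in all. Total RNA of freshly isolated stomach was hybridised to 6 Affymetrix arrays, 3 from wild type embryos and 3 from embryos of the genotype Nkx3.2Cre;R26-SmoM2 (SmoM2 below). SmoM2 is a form of the hedgehog transducer Smoothened that is active without ligand. Here it stands in the ubiquitously active Rosa26 locus and is switched on by a Cre recombinase that the mesenchymal gene Nkx3-2 drives, so the epithelium is not the targeted tissue. The labels name no further allele or agent, and do not say whether a wild type embryo carried the Cre alone, whether embryos were pooled, or whether replicates came from separate litters. The p-values therefore measure only how these samples spread, and some of that spread may be technical.

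The Hippo pathway is a kinase cascade that restrains growth. NF2 (merlin) and other membrane proteins switch on the kinases MST1 and MST2, which with their partners activate LATS1 and LATS2. The LATS kinases phosphorylate the coactivators YAP and TAZ, which then stay in the cytoplasm or are degraded. When the cascade is quiet, YAP and TAZ enter the nucleus and bind the TEAD proteins, which hold the DNA, and VGLL proteins bind the same TEAD surface. In the gut mesenchyme YAP and TAZ favour growth, and the mesenchyme forms smooth muscle as their activity declines. Because the pathway acts mainly through phosphorylation and localisation, transcript levels describe its components and not its activity.

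Start regions of some members are printed here because the core motif of the TEAD proteins occurs in them. RefSeq promoter windows (GRCm38.p6, from 250 bases before a start site to shortly after it) were held for 8 of the 10 genes, 13 windows in all. The motif GGAATG, searched on both strands (CATTCC on the other), stood in 7 of the 13 windows and in 5 of the 8 genes, against 14.7% of 32851 windows and 16.6% of 27025 genes. These genes were Yap1, Wwtr1, Lats2, Tead3 and Vgll3, and the 2 Wwtr1 windows overlap and share 1 match. The motif GACCACCCA, the core read by the hedgehog effectors of the GLI family (TGGGTGGTC on the other strand), stood in 0 of the 13 windows and in 0.253% of all windows. A gene was counted if any of its windows matched, and these 8 genes had more windows per gene than all genes. The difference in share was not tested. A match is a description of the letters and not a bound site. The 250 bases before the start site of 4 genes follow, 5′ to 3′ along the gene, with the TEAD core in capitals.
Yap1, chr9:8004597-8004846, minus strand: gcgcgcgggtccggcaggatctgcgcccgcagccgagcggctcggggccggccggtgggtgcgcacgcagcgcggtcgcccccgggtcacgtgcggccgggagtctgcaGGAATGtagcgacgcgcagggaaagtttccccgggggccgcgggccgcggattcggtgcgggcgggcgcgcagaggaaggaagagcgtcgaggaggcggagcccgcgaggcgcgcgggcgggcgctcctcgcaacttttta
Wwtr1, chr3:57575911-57576160, minus strand: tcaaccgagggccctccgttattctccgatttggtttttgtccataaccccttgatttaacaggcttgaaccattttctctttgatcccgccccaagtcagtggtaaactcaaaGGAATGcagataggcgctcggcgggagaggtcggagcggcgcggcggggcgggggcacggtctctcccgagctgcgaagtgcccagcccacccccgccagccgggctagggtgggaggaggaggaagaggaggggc
Tead3, chr17:28350601-28350850, minus strand: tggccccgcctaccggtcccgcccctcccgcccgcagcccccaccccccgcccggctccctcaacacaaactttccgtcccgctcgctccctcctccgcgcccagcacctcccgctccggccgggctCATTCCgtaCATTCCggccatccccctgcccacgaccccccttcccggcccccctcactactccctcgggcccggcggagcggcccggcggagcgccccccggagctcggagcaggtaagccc
Vgll3, chr16:65814939-65815188, plus strand: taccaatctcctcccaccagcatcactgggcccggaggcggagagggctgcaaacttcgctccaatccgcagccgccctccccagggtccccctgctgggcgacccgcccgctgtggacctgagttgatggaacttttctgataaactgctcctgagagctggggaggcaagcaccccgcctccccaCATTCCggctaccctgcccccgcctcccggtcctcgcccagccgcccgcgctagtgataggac
In these stretches the core began 141 bases before the start site in Yap1, 136 in Wwtr1, 123 and 114 in this window of Tead3, and 63 in Vgll3. In Lats2 the match lay just after the start site.

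The 6 arrays carried the marks of the labelled tissue and genotype, with 1 difference between arrays. Barx1 and Nkx3-2, transcription factors of the stomach mesenchyme, lay between 12.42 and 12.72 and between 9.83 and 10.04 on the log2 scale. Of the 6 mesenchyme markers they belong to, 2 rose in SmoM2, the forkhead genes Foxf2 (log2 change 0.91, limma adjusted p = 0.00197) and Foxf1 (0.37, adjusted p = 0.0366, and 0.0598 to 0.219 without any 1 array), and 0 fell, with Isl1 lowest (-0.37, adjusted p = 0.143). The hedgehog targets Hhip and Ptch1 rose 2.43-fold (log2 change 1.28, SE 0.07, limma adjusted p = 0.000175) and 1.40-fold (log2 change 0.48, SE 0.07, adjusted p = 0.0174) in SmoM2. Gli1 and Smo had log2 changes of 0.42 (adjusted p = 0.0727) and 0.35 (adjusted p = 0.154), with no overlap between groups. Without wild type 1, wild type 2 or SmoM2 3 the adjusted p of Ptch1 was 0.102, 0.0745 and 0.0749, and with the Y-linked signal described below as a covariate it was 0.325 (log2 change 0.44). Olfactory and vomeronasal receptor genes, used here as genes the stomach is not known to use, had their 95th percentile between 7.93 and 8.25, which marks dim signal. Xist was at 7.11 in wild type 1 and between 11.43 and 12.37 in the other arrays, and the mean of 3 Y-linked genes was 10.37 in wild type 1, 9.92 in wild type 2 and 8.71 to 9.27 in the rest. Of the Y-linked genes, Eif2s3y and Kdm5d have probe sets whose numbers lie where those of the X chromosome end and those of the Y begin, with 24 and 26 of the 40 nearest on X, and Uty lies among those of the Y. Sex-linked signal was thus not balanced between the groups.

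The Hippo genes did not pass the test in either direction. Of the 10 members 0 rose and 0 fell at an adjusted p of 0.05 (limma, adjusted over all genes), where 0.983% of all genes passed (0.326% higher and 0.657% lower). At an unadjusted p under 0.05 there was 1 member, Tead1, where 10.5% of all genes passed. Without variance moderation 0 genes in all passed the adjusted threshold, so that fit could call no member. There 1 member passed the unadjusted threshold, which was Tead3 and not Tead1. The median change of the 10 was -0.057 and the median size of change 0.064 on the log2 scale, against 0.0018 and 0.071 over all genes. The groups did not overlap in 1 of the 10, Tead3, against 15.7% of all genes. For 9 of the 10 the 95% interval of the change lay within 0.35 log2 units of 0 on both sides, and 0.35 was the smallest change called in any gene. An interval that spans 0 bounds the change and does not show that the groups were alike. With 3 arrays a group, the smallest two-sided p of an exact permutation test is 0.1.

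**Figure D1:**
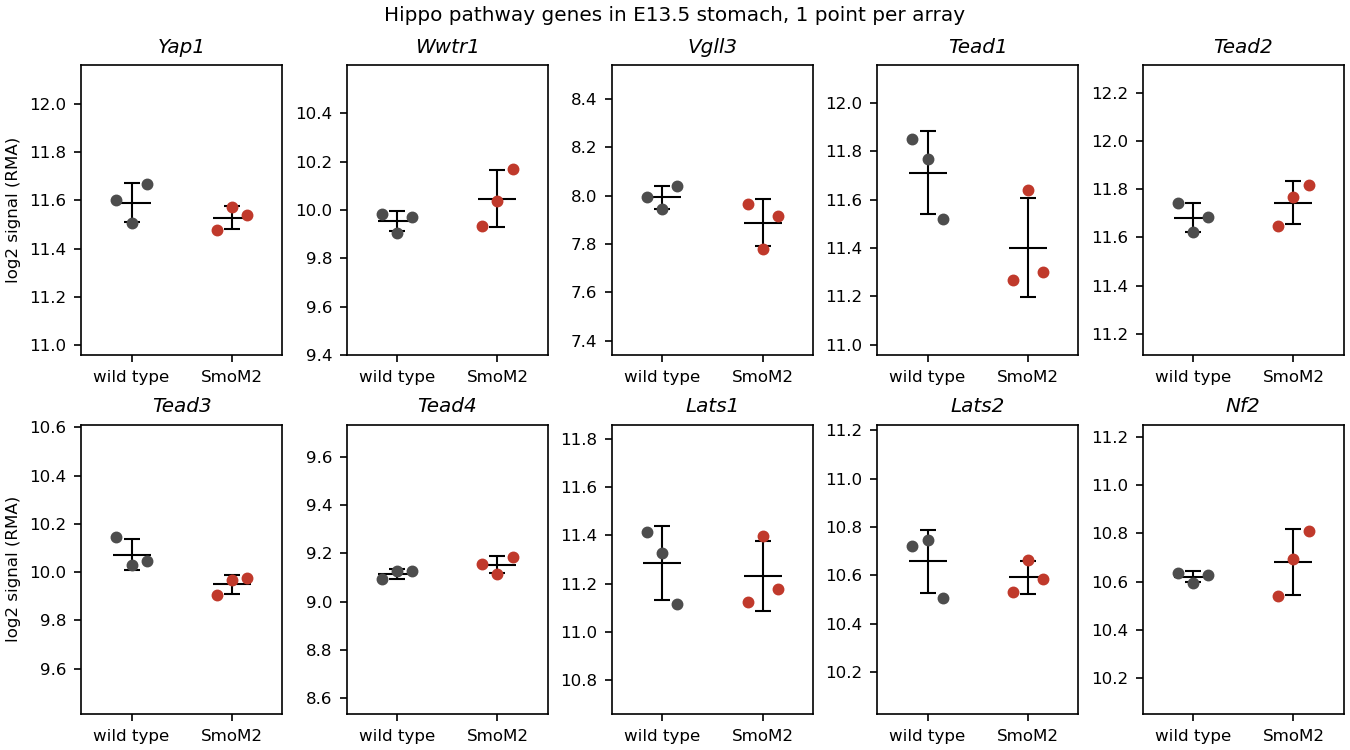
Log2 signal (vertical axes, each of the same span around the gene's mean) of the 10 Hippo genes in wild type and SmoM2 stomach; each point is 1 array, and bars give the mean and SD over 3 arrays. The groups overlap in all of them but Tead3, and Tead1 has the widest spread.

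Among the coactivators, Yap1 and Wwtr1 lay within narrow ranges. Yap1 (probe set 10590808) was at 11.60, 11.50 and 11.67 in the wild type arrays and at 11.47, 11.57 and 11.54 in SmoM2. The SmoM2 arrays sat inside or just under the wild type range, with wild type 3 the highest of the 6. The log2 change was -0.062 (SE 0.07, 95% interval -0.22 to 0.10, limma adjusted p = 0.845), so that the interval ran from 0.857 to 1.07 times the wild type level. Wwtr1 (probe set 10498284) was at 9.98, 9.90 and 9.97 in wild type and at 9.93, 10.04 and 10.17 in SmoM2. Here SmoM2 3 was the highest array and SmoM2 1 lay among the wild type values. Its log2 change was 0.093 (SE 0.08, 95% interval -0.08 to 0.27, adjusted p = 0.775), and it was 0.032 without SmoM2 3.

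Vgll3, a cofactor that binds TEAD proteins in place of YAP and TAZ, read near the level of dim signal. Its probe set (10436487) read 7.99, 7.95 and 8.04 in wild type and 7.97, 7.78 and 7.92 in SmoM2. These values lay within the range of the 95th percentiles of the receptor genes or below it, so Vgll3 could not be told from dim signal here. Its log2 change was -0.11 (SE 0.07, adjusted p = 0.713), with the groups overlapping.

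Among the TEAD factors, which bind DNA for the pathway, Tead1 had the largest change of the 10 members and did not pass. Tead1 (probe set 10556456) was at 11.85, 11.77 and 11.52 in wild type and at 11.27, 11.64 and 11.30 in SmoM2. SmoM2 1 and SmoM2 3 were below every wild type array, while SmoM2 2 was above wild type 3. The log2 change was -0.31 (SE 0.12, 95% interval -0.58 to -0.04, unadjusted p = 0.027, limma adjusted p = 0.369), and 3.71% of all genes had a larger change in size. Tead1 also had the largest SE of the members, and 92.7% of all genes had a smaller one. Its other probe set (10556442) gave a log2 change of -0.18 (SE 0.08), in the same direction, from 11.37, 11.40 and 11.26 to 11.05, 11.28 and 11.16.

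The value of Tead1 moved with the arrays used. It was -0.41 without wild type 3 and -0.43 without SmoM2 2, and between -0.24 and -0.28 without any one of the others. When the fit included the Y-linked signal it was -0.13 (SE 0.15). The test was passed under weights per array alone (adjusted p = 0.00419 and 0.0182 by the 2 methods of estimating them), which gave wild type 1 and SmoM2 3 weights of 2.52 and 6.02 and the other arrays 0.328 to 0.689 by the default method. That estimate stopped before it converged and called 4110 genes in all. The difference in sex-linked signal between the arrays stands beside this value, and its part in it was not tested beyond that covariate.

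Tead2, Tead3 and Tead4 had small changes of both signs. Tead2, the TEAD gene known from early embryos and neural progenitors, was at 11.74, 11.62 and 11.68 in wild type and at 11.65, 11.77 and 11.82 in SmoM2 (log2 change 0.063, SE 0.07, adjusted p = 0.847). Tead3 was at 10.15, 10.03 and 10.04 in wild type and at 9.91, 9.97 and 9.98 in SmoM2. Each SmoM2 array of Tead3 was below each wild type array, but the gap between the nearest arrays was small and the log2 change of -0.12 (SE 0.07, 95% interval -0.28 to 0.03) had a limma adjusted p of 0.611. Tead4, which is known for its part in the trophectoderm, was at 9.09, 9.13 and 9.13 in wild type and at 9.16, 9.11 and 9.19 in SmoM2, the smallest change of the 10 (0.037, SE 0.06, adjusted p = 0.908). The signals of different probe sets do not rank the 4 genes by abundance.

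**Figure D2:**
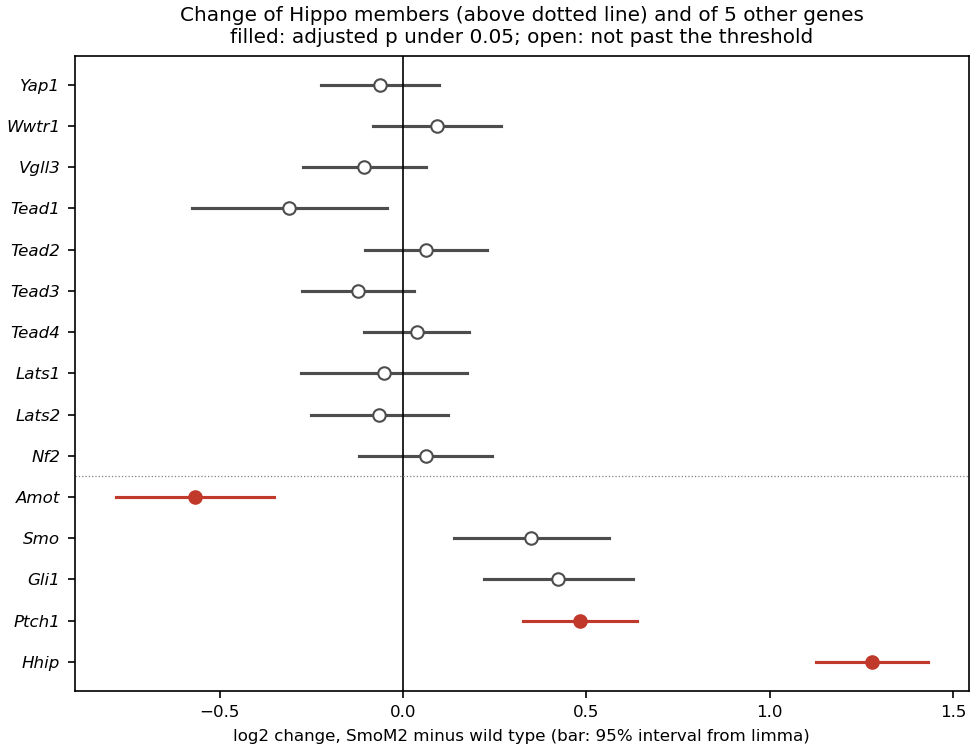
Log2 change from wild type to SmoM2 (horizontal axis) with its 95% interval from limma for the 10 Hippo genes, for Amot, and for 4 genes of the hedgehog pathway; filled red points passed an adjusted p of 0.05. The Hippo genes lie between -0.31 and 0.093 and none is filled, while Amot stands at -0.57 and Hhip at 1.28.

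The kinases that restrain YAP and TAZ, and their upstream activator, were close between the groups. Lats1 (probe set 10361660) was at 11.41, 11.33 and 11.12 in wild type and at 11.12, 11.40 and 11.18 in SmoM2, a log2 change of -0.052 (SE 0.10, adjusted p = 0.923). The 2 groups covered nearly the same range. Lats2 (probe set 10420413), a kinase that is also a transcriptional target of YAP, was at 10.72, 10.74 and 10.51 in wild type and at 10.53, 10.66 and 10.58 in SmoM2 (log2 change -0.066, SE 0.08, adjusted p = 0.862). All 3 SmoM2 arrays of Lats2 lay between wild type 3 and the other two wild type arrays. Nf2, which encodes merlin (probe set 10383897), was at 10.64, 10.60 and 10.63 in wild type and at 10.54, 10.69 and 10.81 in SmoM2 (log2 change 0.061, SE 0.08, adjusted p = 0.866). The SmoM2 arrays of Nf2 lay on both sides of the wild type arrays, with an SD of 0.14 against 0.023. The sign was not stable for Lats1, Lats2, Nf2 and Yap1, whose changes near 0 turned under at least 1 alternative.

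Within the groups, some members deviated together from array to array. Tead1, Lats1 and Lats2 were high in wild type 1, wild type 2 and SmoM2 2 and low in wild type 3, SmoM2 1 and SmoM2 3, each against the mean of its own group. The correlation of these deviations over the 6 arrays was 0.99 for Tead1 with Lats1, 0.87 for Tead1 with Lats2 and 0.91 for Lats1 with Lats2. Wwtr1, Tead2 and Nf2 formed another set, lowest in SmoM2 1 and highest in SmoM2 3, with correlations of 0.97 for Wwtr1 with Nf2, 0.92 for Wwtr1 with Tead2 and 0.89 for Tead2 with Nf2. These sets were picked after the values were seen, and the 6 points share arrays, normalization and group means. Such likeness was frequent over all genes. A correlation of at least 0.9 with Lats1 was found for 1061 other genes (5.32%) and with Wwtr1 for 543 (2.72%), and 1 component held 57.4% of the variation within the groups.

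**Figure D3:**
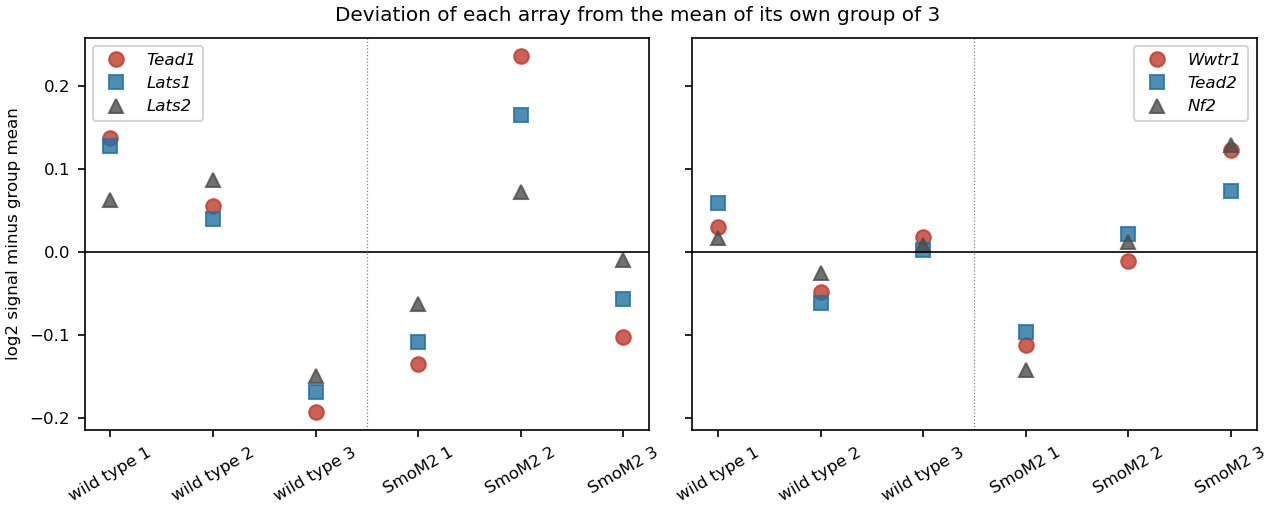
Log2 signal minus the mean of the array's own group (vertical axis) for Tead1, Lats1 and Lats2 on the left and Wwtr1, Tead2 and Nf2 on the right, in each of the 6 arrays. The left set is below 0 in wild type 3, SmoM2 1 and SmoM2 3, and the right set is lowest in SmoM2 1 and highest in SmoM2 3.

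Of 64 other genes of the pathway, sorted into 7 lists by role, 58 were represented, and 1 of the 58 changed. It was Amot, which fell, against 0.657% of all genes that fell. At an unadjusted p under 0.05 there were 1 higher and 9 lower, where 3.29% of all genes were higher and 7.24% lower, and the median change of the 58 was -0.034 against 0.0018 over all genes. The groups did not overlap in 19 of the 58, in 3 of them with SmoM2 higher and in 16 with SmoM2 lower, while 15.7% of all genes did not overlap and 10.1% did so with SmoM2 lower. The lists were put together with earlier results of these arrays known.

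Amot, an X-linked gene, encodes angiomotin, a scaffold that binds YAP at tight junctions and on actin. Its probe set (10607189) read 9.81, 10.03 and 9.85 in wild type and 9.19, 9.49 and 9.30 in SmoM2. The highest SmoM2 array was below the lowest wild type array, and the transcript was 1.48-fold lower (log2 change -0.57, SE 0.10, 95% interval -0.78 to -0.35, limma adjusted p = 0.0286). The call was lost without wild type 1 (adjusted p = 0.0981), wild type 2 (0.106), SmoM2 1 (0.0938) or SmoM2 3 (0.164), and with the Y-linked covariate (log2 change -0.55, adjusted p = 0.357). It was kept without wild type 3 (adjusted p = 0.0386) and without SmoM2 2 (0.018). In tissue RNA, fewer cells of a type and less RNA per cell cannot be told apart. Among 12 markers of epithelium 6 fell and 0 rose, Esrp1 and Cldn6 most (log2 changes -0.68 and -0.66). The mean log2 signal of the 12 was 10.04 to 10.16 in wild type and 9.67 to 9.76 in SmoM2, with 0 of them at the dim level. Of the mesothelial markers 4 of 8 fell, Igfbp5 and Bnc1 most (-0.78 and -0.72), with means of 10.23 to 10.36 and 9.86 to 9.999. Of the markers of enteric neurons and glia 5 of 10 fell, Dcx and Nefm most (-1.07 and -1.01), with 10.05 to 10.21 and 9.56 to 9.75. The rest of these mesothelial and neuronal markers did not pass. Of the 8 and the 10, 7 and 8 had negative changes, and Msln (0.076, at the dim level), Ret (0.054) and Sox10 (0.11) had positive ones. Of the markers of endothelium, erythroid cells and leukocytes 0 of 8, 0 of 7 and 0 of 8 passed (limma), with 3, 4 and 6 lower at an unadjusted p under 0.05. At the dim level were 0, 0 and 2 of these markers. Over all genes 0.657% fell at the adjusted threshold and 7.24% were lower at that unadjusted p. With the Y-linked covariate Nefm passed, while Esrp1, Cldn6, Igfbp5, Bnc1 and Dcx had adjusted p of 0.427, 0.19, 0.0694, 0.267 and 0.0887 and log2 changes of -0.499, -0.61, -0.79, -0.58 and -0.86. Without SmoM2 3 the adjusted p of the same genes was 0.0749, 0.0732, 0.0504, 0.095 and 0.0562, without wild type 1 Esrp1, Cldn6 and Bnc1 had 0.133, 0.0763 and 0.0853, and without wild type 2 Esrp1 and Bnc1 had 0.0842 and 0.0654. The part of these cell types in the value of Amot was not tested.

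The angiomotin relative Amotl1 was at 10.22, 10.35 and 10.26 in wild type and at 10.03, 10.13 and 10.17 in SmoM2, without overlap (log2 change -0.17, SE 0.07, adjusted p = 0.448). Amotl2, the third of the family and a YAP target, had a log2 change of -0.06. The genes of 14-3-3 proteins, which hold phosphorylated YAP in the cytoplasm, made up the rest of that list, and 0 of them passed. The probe sets of Ywhaz, Ywhah and Sfn are numbered among those of another chromosome than their gene, so the loci they report are uncertain.

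**Figure D4:**
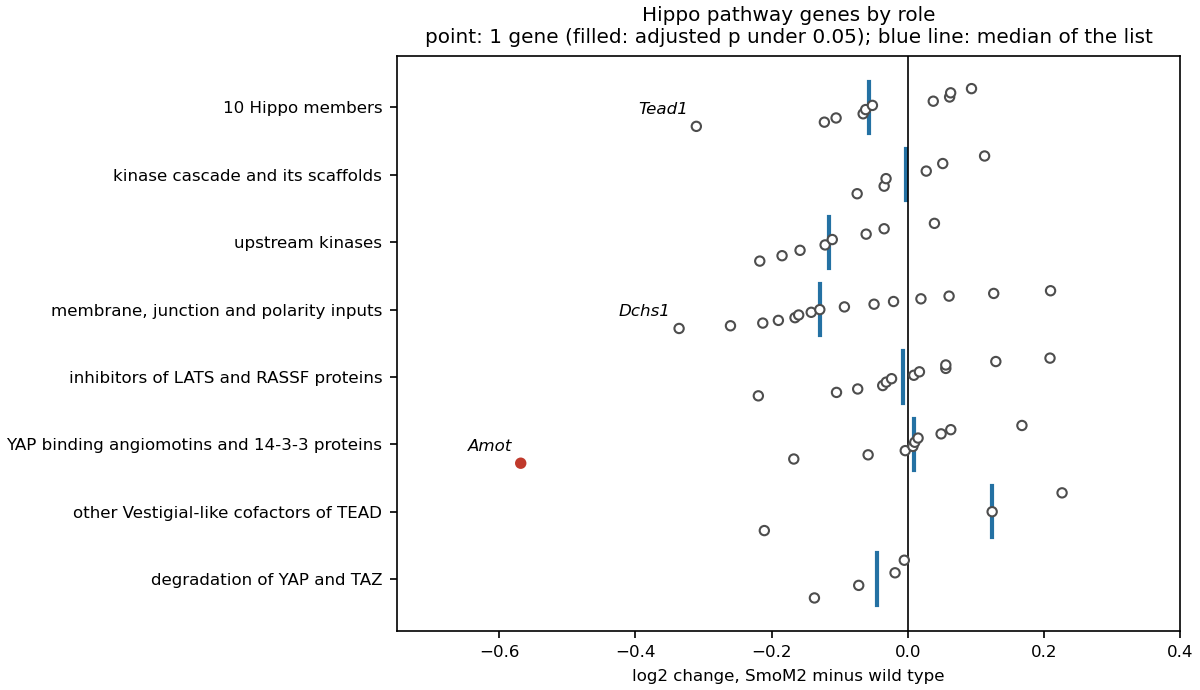
Log2 change from wild type to SmoM2 (horizontal axis) of the 10 Hippo members and of 58 other genes of the pathway sorted by role; each point is 1 gene, and the blue line is the median of its row. Amot at -0.57 is the only filled point (adjusted p under 0.05), and the row of membrane inputs has its median at -0.13.

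At the top of the pathway, 0 of 15 membrane, junction and polarity genes passed, with 4 below and 0 above at an unadjusted p under 0.05, where 7.24% of all genes were below and 3.29% above, and a median change of -0.13. Dchs1, a large cadherin that binds FAT4 on the neighbouring cell, was at 10.75, 11.09 and 10.70 in wild type and at 10.36, 10.63 and 10.55 in SmoM2 (log2 change -0.34, SE 0.11, adjusted p = 0.301). Its partner Fat4 had a log2 change of 0.21 (adjusted p = 0.56), with overlapping groups. Crb2, a polarity protein of the Crumbs complex, was between 9.61 and 9.63 in wild type and at 9.25, 9.54 and 9.28 in SmoM2 (log2 change -0.26, adjusted p = 0.287). The fall of some epithelial, mesothelial and neuronal markers given above stands beside these values, and its part in them was not tested.

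The remaining lists had no member past the threshold. Of 8 upstream kinases 0 passed, and Taok1 and Taok2, which can phosphorylate the MST and LATS kinases, had log2 changes of -0.22 (adjusted p = 0.523) and -0.18 (adjusted p = 0.373). Of 6 genes of the core cascade and its scaffolds 0 passed, with 0 also at an unadjusted p under 0.05. Its largest changes were 0.11 for Stk38l and -0.074 for Stk38, kinases related to LATS. Among 12 inhibitors of LATS and RASSF genes 0 passed, with Rassf4 at -0.22 and Rassf3 at 0.21 (adjusted p = 0.320 and 0.299). Of the other Vestigial-like cofactors, Vgll4, which represses TEAD targets, was at 11.82, 11.99 and 11.79 in wild type and at 11.62, 11.77 and 11.57 in SmoM2 (log2 change -0.21, SE 0.08, adjusted p = 0.396), and Vgll1 had a log2 change of 0.23 with an SD of 0.35 in SmoM2 (adjusted p = 0.703). Vgll1 read 8.48 in SmoM2 1 and between 7.74 and 8.06 in the other arrays, where it could not be told from dim signal. Among 4 genes that take part in degrading YAP and TAZ, Btrc and Csnk1d had the largest changes (-0.14 and -0.072, adjusted p = 0.525 and 0.789).

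Of 26 genes listed as targets of YAP and TAZ 1 rose, the forkhead gene Foxf2 (1.88-fold, adjusted p = 0.00197), which hedgehog signalling also induces, and 1 fell, Ccdc80, a secreted matrix protein (1.51-fold lower, adjusted p = 0.0286, and 0.0932, 0.109, 0.0665 and 0.138 without wild type 1, wild type 2, SmoM2 1 and SmoM2 3). With the Y-linked covariate Foxf2 kept its call (log2 change 0.80, adjusted p = 0.032) and Ccdc80 lost it (-0.59, adjusted p = 0.332). At the adjusted threshold 0.326% of all genes rose and 0.657% fell. At an unadjusted p under 0.05, 3 of the 26 were higher and 5 lower, where 3.29% of all genes were higher and 7.24% lower. The groups did not overlap in 9 of the 26, in 3 with SmoM2 higher and in 6 lower. Over all genes 15.7% did not overlap, and 10.1% did so with SmoM2 lower. The median change of the 26 targets was -0.062. Several of the 26, Lats2 and Amotl2 among them, also belong to the members or the other pathway lists, so the counts share genes. Of 12 smooth muscle markers, the tissue that forms in this mesenchyme, 5 rose, among them Myocd (log2 change 0.86) and Actg2 (0.69), and 1 fell, Des (-0.54), with a mean log2 signal of 10.04 to 10.09 in wild type and 10.33 to 10.50 in SmoM2. Myocd passed in each fit without 1 array and with the Y-linked covariate, whereas Actg2 and Des did not with that covariate (adjusted p = 0.377 and 0.212), nor without wild type 1 (0.194 and 0.0701), wild type 2 (0.108 and 0.106), SmoM2 1 (0.113 and 0.085) or SmoM2 3 (0.107 and 0.149). Centred on the 75th percentile they had 0.0981 and 0.0564.

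The members were also followed over 21 other ways of processing or selecting the arrays. In 19 of these 0 members passed, and the exceptions were the weights per array described with Tead1, where Wwtr1 also passed by the default method (log2 change 0.18, adjusted p = 0.0389). The 19 include the fit without variance moderation, where 0 genes in all passed. Of 205 member values under these alternatives 199 had the sign given above.

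**Figure D5:**
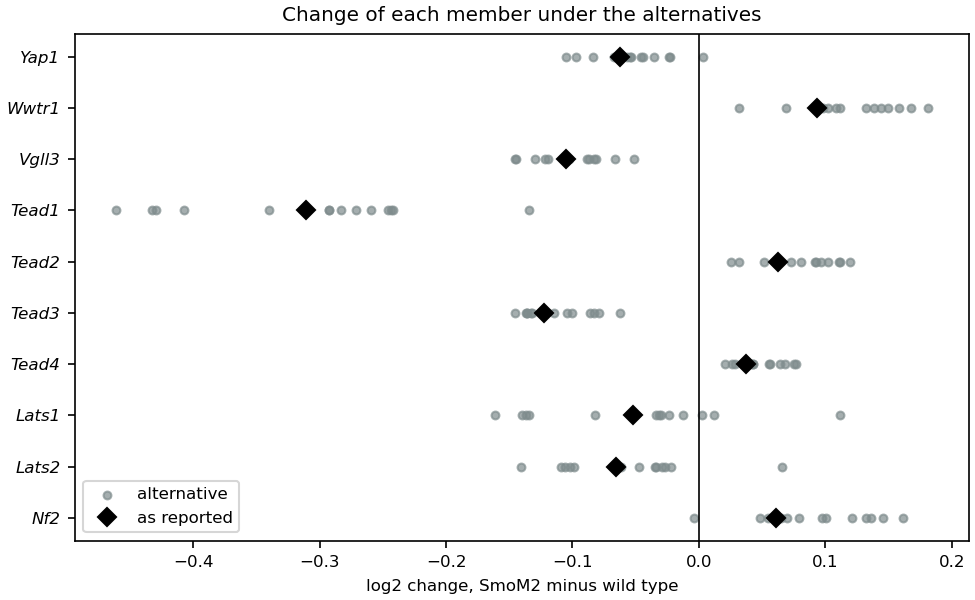
Log2 change from wild type to SmoM2 (horizontal axis) of each Hippo gene as reported (black diamond) and under each alternative (grey points). Tead1 keeps its sign from -0.46 to -0.13, while points of Yap1, Lats1, Lats2 and Nf2 lie on both sides of 0.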

How the data were processed

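Total RNA of 3 wild type and 3 SmoM2 stomach samples was biotin-labelled and read on Affymetrix arrays, per the labels' protocols. The deposited values are log2 signals of 35556 probe sets, made with RMA and affy per the submitters' processing notes, with each version not given in the sources used here. This draws the arrays to a common distribution, so a change in total RNA would not show. The platform annotation gave 1 symbol for 21789 probe sets, several for 1621, and the others stayed unnamed. The brightest probe set stood for each of 19938 genes. Groups were compared with limma 3.58.1 in R 4.3.3 (lmFit, eBayes), with Benjamini-Hochberg adjustment over all genes and a threshold of 0.05. The number of arrays limits the precision. The fit was tested on simulated data. Their noise was drawn independently for each gene and array, unlike the variation that genes share in these arrays. Promoter sequences are RefSeq's on GRCm38.p6, and the build of the probe annotation is not given in the sources used here. Named were the members, 4 hedgehog genes, tissue and sex-linked checks, targets past the threshold, up to 2 of each marker list past it, and of each pathway list the genes past the threshold or else the 2 largest changes. Fat4, Amotl2, Des, Isl1, Msln, Ret, Sox10 and the 14-3-3 genes, and the sets of members that deviated together, were named after seeing their values. The members and lists were chosen with earlier results of these data known.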

Additional observations from a re-analysis of the deposited data

How the results depend on the processing

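Leaving out wild type 3 with SmoM2 1 and array weights by the gene by gene method were alternatives chosen after seeing the data. The count of genes past the threshold, 196, became 698 with the replicate number as a block (replicate block), 336 with an intensity trend, 120 when centred on the 75th percentile, 22 with the Y-linked covariate, 4110 and 1850 with array weights by the default and the gene by gene method, 0 without variance moderation, and 32 to 247 when 1 array was left out. The count of members, 0, became 2 and 1 under these array weights and 0 in every fit without 1 array. The count of other pathway genes, 1, became 2 with the replicate block (Amot and Dchs1, adjusted p = 0.0311), 16 and 7 with array weights, and 0 above the 75th percentile of probe sets, where the filter removed Amot, without variance moderation, with the Y-linked covariate and without both wild type 3 and SmoM2 1, and it ran from 0 to 1 when 1 array was left out. The replicate block put no member past the threshold. The labels do not say whether equal numbers pair the arrays. Deviations of same-numbered arrays from their group means correlated at -0.10, 0.52 and 0.065 over all genes. These values do not decide it, since the 3 deviations of a group sum to 0. Gli1 and Smo passed with the replicate block (adjusted p = 0.00376 and 0.0265). The sign turned for Lats1 (0.11), Lats2 (0.066) and Stk38 (0.012) with the Y-linked covariate and for Yap1 without both arrays (0.0032). It turned in fits without 1 array for Lats1 (-0.14 to 0.012, with 0.0024 without SmoM2 1) and for Nf2 (-0.0036 to 0.13). The cause of these shifts was not tested. Vgll3 was removed by both filters on dim probe sets and Wwtr1, Tead3 and Tead4 by the stricter one.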
